A study of Mus musculus with 12 samples.

Results

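Scn3b and Scn8a, 2 genes of the voltage-gated sodium channel, were read by 4 probe sets in the hippocampus of mice lacking CREB and CREM and of control mice. The probe sets were chosen by gene symbol in the platform annotation, 2 for Scn3b (166913_at and 133130_at) and 2 for Scn8a (135307_at and 138007_at). They are 4 of the 11868 probe sets of the array that are not controls, and all 4 are among the 3541 that passed a filter on dim signal (log2 4 or more on 3 or more of the 12 arrays). Probe sets of the same gene share their target and are not replicates of each other.

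The 12 arrays form 4 groups of 3. Mutant mice received kainate or saline, and control littermates received kainate or saline. Kainate is an agonist of ionotropic glutamate receptors that causes seizures, given here at 20 mg/kg into the peritoneum, and the hippocampus was taken 1 hour after the injection. The mice were males and females of 5 to 6 weeks, caged singly and handled for 5 days. Each array holds hippocampal RNA pooled from 3 animals, so p-values reflect the spread between pools. The labels name the mutants only as lacking CREB and CREM, factors that bind cAMP response elements, and the sources used here give neither the alleles of both genotypes nor the cells in which the genes were removed.

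Voltage-gated sodium channels carry the inward current of the action potential. A pore-forming alpha subunit is enough to conduct, and beta subunits change its gating, its delivery to the membrane and its contacts with adhesion molecules. Scn8a encodes the alpha subunit Nav1.6, which is dense at the axon initial segment and at nodes of Ranvier and sets the threshold for firing in many neurons. Scn3b encodes beta3, a non-covalently bound beta subunit that is expressed in hippocampal neurons. In mice, loss of Scn8a function causes movement disorders and alters seizure susceptibility.

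CREB and CREM act at promoters, so the sequence before the first annotated start of Scn8a is shown. It is the forward strand of chr15:100870395-100870644 in the RefSeq annotation of build GRCm38.p6, 250 bases that end just before that start.
Scn8a upstream: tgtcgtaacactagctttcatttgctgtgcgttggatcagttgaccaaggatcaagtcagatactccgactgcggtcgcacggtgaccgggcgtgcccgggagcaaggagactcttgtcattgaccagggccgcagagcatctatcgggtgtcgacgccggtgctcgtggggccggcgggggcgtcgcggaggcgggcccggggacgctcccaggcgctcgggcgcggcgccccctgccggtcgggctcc
The window searched was these 250 bases with the 50 bases after the start. It had a GC content of 70.0% and 38 CG dinucleotides, against a median GC content of 52.7% and a median of 7 CG over 32851 promoter windows of the same length. The window of the second annotated start of Scn8a had 53.3% GC and 12 CG. Both were searched on both strands for the full cAMP response element TGACGTCA, the short core TGACG that the full site contains, the AP-1 element TGANTCA and the Egr element GCGTGGGCG. These letters were found in 0 of the 2 Scn8a windows, and in 1.79%, 20.8%, 7.81% and 0.612% of all windows in the order named, so no part of the sequence is in capitals.

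Some arrays stood apart, and the limma genotype differences of Scn3b and Scn8a that rest on arrays in doubt are given with and without those arrays. The replicate 1 arrays correlated with each other at 0.987 to 0.992 and with their own groups at 0.818 to 0.968, and are treated as a batch seen in the data. The mutant kainate replicate 3 array had a narrower spread of values (SD 1.52, against 1.71 to 1.78 on the others). Gfap, an astrocyte filament gene, and Fbll1 separated the genotypes on the other 10 arrays. There Gfap was 12.23 to 13.03 in mutants against 10.75 to 11.59 in controls, and Fbll1 was 6.35 to 6.76 in mutants against 7.78 to 8.11 in controls. The array with the narrow spread, labelled mutant kainate replicate 3, read Gfap at 11.55 and Fbll1 at 7.46, close to the controls, and the array labelled control kainate replicate 3 read them at 12.95 and 6.51, as in the mutants. On these 2 genes, chosen after their values were seen, both arrays go against their genotype labels, each reading like the other genotype. The labels were kept, and every Scn3b and Scn8a genotype value after kainate or averaged over treatments rests on these 2 arrays. The limma differences are given with and without them. Ranks by p, overlap counts, orders of group means and shares of the sum of squares are given only with them. Creb1 (4.77 to 5.11) and Crem (4.37 to 4.83) lay close to the filter in every group and cannot check the genotype labels, since it is not known whether their probes lie in the deleted parts. Of 16 pan-neuronal markers 3 were above the filter (Syn1, Elavl3 and Elavl4), so the labelled tissue is checked by few genes.

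The brighter Scn3b probe set was lower in the mutants in both treatments, by -0.52 on the log2 scale averaged over both, and this was the difference of the 4 probe sets that was largest relative to its error. It did not pass the adjusted threshold. The dimmer Scn3b probe set and both Scn8a probe sets also had lower means in the mutants, with intervals that include 0 in the fit without a block. With the split of replicate 1 as a block the unadjusted limma p averaged over treatments was 0.00359 for 133130_at, 0.0297 for 138007_at and 0.142 for 135307_at. No adjusted p passed, and 722 of the 3541 probe sets had an unadjusted p under 0.05 in that fit. Every kainate interval included 0 for all 4.

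On 166913_at, Scn3b read 10.08, 9.84 and 10.15 in mutant saline (replicates 1, 2 and 3), against 10.64, 10.57 and 10.52 in control saline. All 3 mutant arrays lay below all 3 control arrays. Of the 3541 probe sets 181 (5.11%) had mutant saline arrays all below control saline arrays, and 1208 (34.1%) did not overlap in either direction. The difference was -0.55 ± 0.18 (SE, 95% interval -0.96 to -0.15), or 0.681 times the control level, with a limma p of 0.0122 and an adjusted p of 0.385. It was -0.57 within replicate 1 and -0.55 within replicates 2 and 3.

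After kainate the same probe set read 10.28, 9.76 and 9.61 in mutant mice, against 10.63, 10.25 and 10.21 in control mice. Replicates 2 and 3 of the mutants lay below every control array, while mutant replicate 1 lay above the controls of replicates 2 and 3. Within replicates 2 and 3 the mutant arrays lay below the control arrays, and in replicate 1 the mutant array lay below the control array. This held for 573 probe sets (16.2%). Replicate 1 has 1 array per genotype here, so only replicates 2 and 3 could overlap. The difference was -0.48 ± 0.18 (95% interval -0.88 to -0.08), with a limma p of 0.024 and an adjusted p of 0.55. Of the 188 probe sets with means of at least 9, 175 were lower in mutants after kainate, with a median of -0.30. With both arrays in doubt left out and the batch as a block the Scn3b difference was -0.42 ± 0.15, beside a median of -0.07 for the 188. The Scn3b difference came to -0.34 without the mutant kainate replicate 3 array and to -0.18 when the arrays were quantile-normalized again.

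Averaged over treatments, the 6 mutant arrays ran from 9.61 to 10.28 (mean 9.95 ± 0.26, SD) and the 6 control arrays from 10.21 to 10.64 (mean 10.47 ± 0.19). 5 of the 6 mutant arrays lay below all control arrays. Within either batch the genotypes did not overlap, a pattern shared by 64 probe sets (1.81%) in this direction. The difference was -0.52 ± 0.13 (95% interval -0.80 to -0.23), a level 0.698 times that of controls, with a limma p of 0.0025 and an adjusted p of 0.247. By p it ranked 19 of 3541. Without the 2 arrays in doubt and with the batch as a block it was -0.49 ± 0.09 with an adjusted p of 0.0822, and adjusted p ran from 0.0683 to 0.485 over all alternatives. Quantile normalization again gave -0.33, with an adjusted p of 0.409.

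No probe set of the array passed the adjusted threshold by genotype in limma, 0 of 3541 (0.0%) after saline, after kainate or averaged. At an unadjusted p under 0.05 there were 428 (12.1%) after saline, 167 (4.72%) after kainate and 677 (19.1%) averaged, of which 170 (4.8%) were lower in mutants. Of the 4 sodium channel probe sets only 166913_at was among these, in all 3 comparisons.

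**Figure D1:**
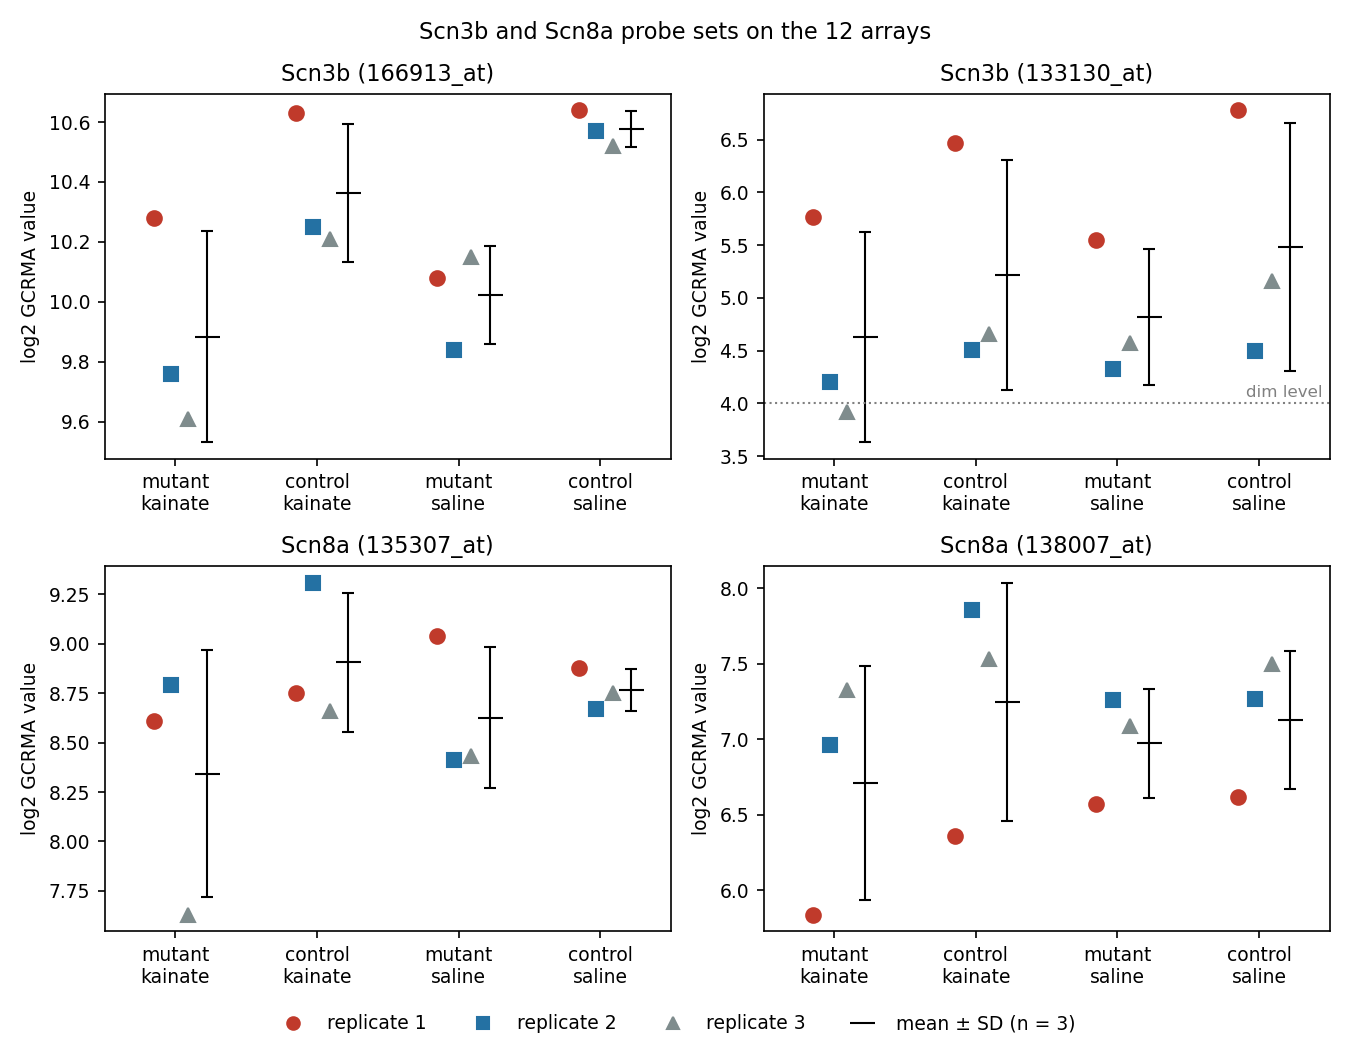
Levels of the 4 probe sets on all 12 arrays (log2 GCRMA, vertical axes), 1 panel per probe set, with the groups along the horizontal axis, a marker for each array by replicate and, beside them, the group mean ± SD (n = 3); the dotted line on 133130_at is the dim level of 4. On 166913_at the mutant saline arrays (9.84 to 10.15) all lie below the control saline arrays (10.52 to 10.64); on 133130_at and 138007_at the replicate 1 arrays stand apart from replicates 2 and 3.

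The second Scn3b probe set, 133130_at, was dimmer. It read 5.55, 4.33 and 4.57 in mutant saline, against 6.78, 4.50 and 5.16 in control saline. After kainate it read 5.77, 4.20 and 3.92 in mutant mice and 6.47, 4.51 and 4.66 in control mice. The genotypes overlapped in both treatments, and replicate 1 was higher than replicates 2 and 3 in every group. Within replicates 2 and 3 the genotypes overlapped after saline. After kainate the mutants lay below the controls without overlap in replicates 2 and 3, and lower in the 1 pair of replicate 1. The same held for 573 probe sets (16.2%). Between arrays of the same replicate number the mutant was lower in 6 of 6 pairs, by 0.17 to 1.23. How many of all probe sets were lower in 6 of 6 pairs was not counted, so the count cannot be read as particular to 133130_at.

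The limma difference of 133130_at was -0.66 ± 0.76 (95% interval -2.36 to 1.04) after saline and -0.58 ± 0.76 (-2.28 to 1.12) after kainate. Averaged over treatments it was -0.62 ± 0.53 with an adjusted p of 0.499. With the batch as a block the estimate stayed at -0.62 and its SE was 0.16, with an unadjusted limma p of 0.00359 and an adjusted p of 0.205. In that fit 722 of the 3541 probe sets had an unadjusted p under 0.05. Without the 2 arrays in doubt and with that block the difference of 133130_at was -0.58 ± 0.19 averaged and -0.50 ± 0.29 after kainate. Both Scn3b probe sets had lower means in mutants, and for the dimmer one the interval includes 0 without the block.

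The order of group means was the same on both Scn3b probe sets, mutant kainate, mutant saline, control kainate and control saline from low to high. On 166913_at these were 9.88 ± 0.36, 10.02 ± 0.16, 10.36 ± 0.23 and 10.58 ± 0.06 (SD, n = 3 arrays each). Only the neighbours mutant saline and control kainate did not overlap. On 133130_at the means were 4.63 ± 1.00, 4.82 ± 0.65, 5.21 ± 1.09 and 5.48 ± 1.17 in the same order, and all neighbours overlapped.

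The brighter probe sets of the array had their own shift by genotype, which sits beside the Scn3b and Scn8a values. The 188 probe sets with a mean of at least 9 had a median difference of -0.21 in mutants against controls averaged over treatments, and 170 of them were lower in mutants. Without the 2 arrays in doubt and with the batch block that median was -0.09, while 166913_at was at -0.49. For means of 8 to 9, the class of Scn8a 135307_at, 183 of 209 probe sets were lower in mutants with a median of -0.28 averaged over treatments, and for means of 6 to 8, the class of 138007_at, 593 of 732 were lower with a median of -0.25. Without the 2 arrays in doubt and with the batch block these medians were -0.07 and -0.06. The median over all 3541 probe sets was -0.01. In whole hippocampus, fewer cells of a type and less RNA per cell cannot be told apart.

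Markers of hippocampal cell types moved with genotype in part. Summed over the 3 pan-neuronal markers above the filter, the linear signal was 240 to 289 in mutant saline against 273 to 312 in control saline, and 249 to 367 in mutant kainate against 302 to 360 in control kainate. The single CA1 marker of 9 above the filter, Lefty1, had a summed level of 98 to 155 in mutant saline against 274 to 392 in control saline, and 50 to 93 in mutant kainate against 89 to 294 in control kainate. The 5 of 15 astrocyte markers above the filter summed to 4966 to 8301 in mutant saline against 1910 to 3183 in control saline, and to 3205 to 8573 in mutant kainate against 2998 to 8217 in control kainate. That sum is nearly all Gfap, and the median log2 difference of the 5 markers was 0.01 after saline, with 2 of 5 negative, and -0.05 after kainate, with 3 of 5 negative. After kainate Gfap read 12.82, 13.03 and 11.55 in mutants (replicates 1, 2 and 3) against 11.51, 11.53 and 12.95 in controls. The overlap after kainate thus came from the 2 arrays in doubt, and Gfap is a gene that put them in doubt. All marker sums after kainate include these arrays. The 3 of 14 microglial markers above the filter summed to 1109 to 1336 in mutant saline against 753 to 867 in control saline, without overlap, and to 549 to 1513 in mutant kainate against 906 to 1624 in control kainate. Summed interneuron (2 of 13), dentate gyrus (3 of 10), oligodendrocyte (3 of 16) and endothelial (1 of 13) markers overlapped between the genotypes after saline, and the 2 of 10 CA3 markers summed to 43 to 45 in mutant saline against 41 to 42 in control saline. No marker is at 0, since the values are logs with a floor. The part of these markers in the Scn3b difference was not tested.

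Scn8a was read well above the filter by 135307_at. It read 9.04, 8.41 and 8.43 in mutant saline, against 8.88, 8.67 and 8.75 in control saline. The mutant arrays lay on both sides of the control arrays. The difference was -0.13 ± 0.31 (95% interval -0.83 to 0.56), with an adjusted p of 0.997.

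After kainate 135307_at read 8.61, 8.79 and 7.63 in mutant mice, against 8.75, 9.31 and 8.66 in control mice. The lowest value of the 12 was that of mutant kainate replicate 3, the array with the narrow spread. The difference was -0.56 ± 0.31 (95% interval -1.26 to 0.13), with an adjusted p of 0.55. Of the 209 probe sets with means of 8 to 9, 192 were lower in mutants after kainate, with a median of -0.47, so this value lies close to that of the array at its brightness. Without both arrays in doubt and with the batch block it was -0.33 ± 0.26, beside a median of -0.09 for the 209. Without mutant kainate replicate 3 alone it was -0.20, and after quantile normalization it was -0.18. It was -0.14 within replicate 1 and -0.77 within replicates 2 and 3.

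The second Scn8a probe set, 138007_at, read 6.57, 7.26 and 7.09 in mutant saline, against 6.62, 7.27 and 7.50 in control saline. After kainate it read 5.84, 6.96 and 7.33 in mutant mice and 6.36, 7.86 and 7.53 in control mice. Here replicate 1 was the lowest array of every group. The genotypes overlapped in both treatments. The difference was -0.16 ± 0.47 (95% interval -1.22 to 0.91) after saline and -0.55 ± 0.47 (-1.61 to 0.52) after kainate. Of the 732 probe sets with means of 6 to 8, 618 were lower in mutants after kainate, with a median of -0.44. Between arrays of the same replicate number the mutant was lower in 6 of 6 pairs, by 0.01 to 0.90. The share of all probe sets with that pattern was not counted. After kainate the genotypes overlapped within neither batch, as for 573 probe sets (16.2%) in the direction of lower in mutants. With the batch as a block the SE was 0.19 in both treatments. The unadjusted limma p was 0.43 after saline and 0.0199 after kainate (adjusted p 0.859 and 0.511). In that fit 404 of the 3541 probe sets after saline and 295 after kainate had an unadjusted p under 0.05.

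Without the mutant kainate replicate 3 array the genotype difference of 138007_at after kainate was -0.86, so leaving out that array moved the 2 Scn8a probe sets in opposite directions. Averaged over treatments the genotype difference was -0.35 ± 0.22 (95% interval -0.84 to 0.14, adjusted p 0.383 in limma) for 135307_at and -0.35 ± 0.33 (-1.10 to 0.40, adjusted p 0.54) for 138007_at. With both arrays in doubt left out and the batch as a block these were -0.23 ± 0.16 and -0.44 ± 0.14. The second had an unadjusted limma p of 0.0166 and an adjusted p of 0.252, and 464 of the 3541 probe sets had an unadjusted p under 0.05 there. After kainate alone 138007_at was then at -0.71 ± 0.22 (adjusted p 0.509). In the fit without a block both Scn8a intervals include 0 and the -0.52 measured for Scn3b.

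Scn8a means ran, from low to high, from mutant kainate through mutant saline and control saline to control kainate on both probe sets. They were 8.35 ± 0.63, 8.63 ± 0.35, 8.76 ± 0.11 and 8.91 ± 0.35 on 135307_at (SD, n = 3 arrays each), and 6.71 ± 0.78, 6.97 ± 0.36, 7.13 ± 0.45 and 7.25 ± 0.79 on 138007_at. All neighbours overlapped on both.

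**Figure D2:**
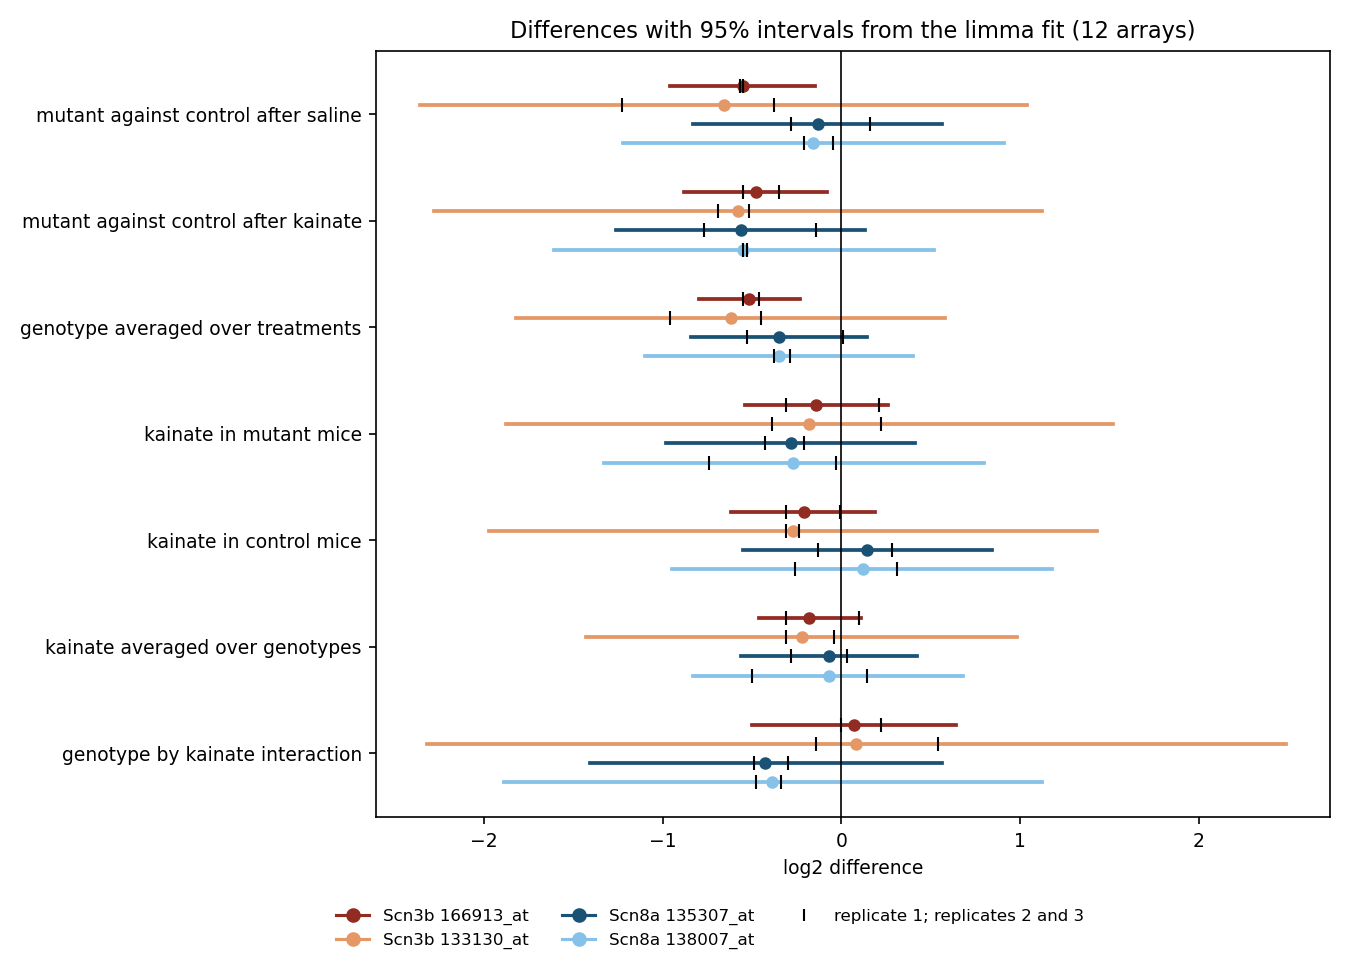
Differences (log2, horizontal axis) of the 4 probe sets, by colour, in the 7 comparisons, down the vertical axis. Points and bars are limma estimates with 95% intervals, and black ticks are the values within replicate 1 and within replicates 2 and 3. The interval of 166913_at lies below 0 for the 3 genotype comparisons (-0.55, -0.48 and -0.52), and every other interval includes 0.

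Kainate against saline gave no called difference for either gene. For Scn3b 166913_at the kainate difference was -0.14 ± 0.18 (95% interval -0.54 to 0.26) in mutant mice and -0.21 ± 0.18 (-0.62 to 0.19) in control mice. It was 0.21 and -0.01 within replicate 1, in mutant and control mice, and -0.31 in both genotypes within replicates 2 and 3. The ratio of 3′ to 5′ actin signal, a sign of RNA quality, ran with that split: in replicates 2 and 3 it was 2.20 to 2.44 on kainate arrays against 1.74 to 1.83 on saline arrays (log2), and its part in the difference was not tested. For 133130_at the differences were -0.18 ± 0.76 in mutant mice and -0.27 ± 0.76 in control mice.

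For Scn8a the kainate difference of 135307_at was -0.28 ± 0.31 (95% interval -0.98 to 0.41) in mutant mice and 0.14 ± 0.31 (-0.55 to 0.84) in control mice. Without the 2 arrays in doubt and with the batch block the value in mutant mice was 0.06 ± 0.23. For 138007_at the differences were -0.27 ± 0.47 in mutant mice and 0.12 ± 0.47 in control mice. The interaction, the kainate difference in mutants minus that in controls, was -0.43 ± 0.44 on 135307_at, -0.39 ± 0.67 on 138007_at, 0.07 ± 0.25 on 166913_at and 0.08 ± 1.07 on 133130_at.

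Elsewhere on the array some kainate differences passed the threshold. In limma 1 of 3541 probe sets (0.0282%) passed in mutant mice and 1 (0.0282%) in control mice, in both cases the inward rectifier Kcnj2, and 5 (0.141%) passed averaged over genotypes (Apold1, Egr3, Gm13889, Kcnj2 and Sik1, named after their values were seen). For the interaction 0 passed (0.0%) and 31 (0.875%) had an unadjusted p under 0.05. At an unadjusted p under 0.05 there were 300 (8.47%) in mutant mice, 158 (4.46%) in control mice and 400 (11.3%) averaged over genotypes. Scn3b and Scn8a were in none of these sets.

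Where the variation of each probe set lay was described by splitting its sum of squares over the 12 arrays. For 166913_at genotype held 60.7%, kainate 7.01%, the interaction 0.306%, the split of replicate 1 from replicates 2 and 3 17.8%, and the rest 14.2%. A genotype share at least as large was held by 25 of the 3541 probe sets (0.706%). For 133130_at the split of replicate 1 held 79.4% and genotype 12.5%. The 2 Scn3b probe sets thus differed in what dominated them.

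For Scn8a, 135307_at had 19.9% for genotype, 8.32% for the split of replicate 1 and 63.5% for the rest. On 138007_at the split held 73.9% and genotype 10.3%. Median shares over all probe sets were 13.1% for genotype, 7.43% for the split and 47.2% for the rest. The batch ran in opposite directions on the 2 genes' dimmer probe sets. On 133130_at replicate 1 averaged 6.14 (5.55 to 6.78) against 4.48 (3.92 to 5.16) in replicates 2 and 3. On 138007_at it averaged 6.35 (5.84 to 6.62) against 7.35 (6.96 to 7.86). Neither overlapped, as for 321 probe sets (9.07%) in either direction.

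**Figure D3:**
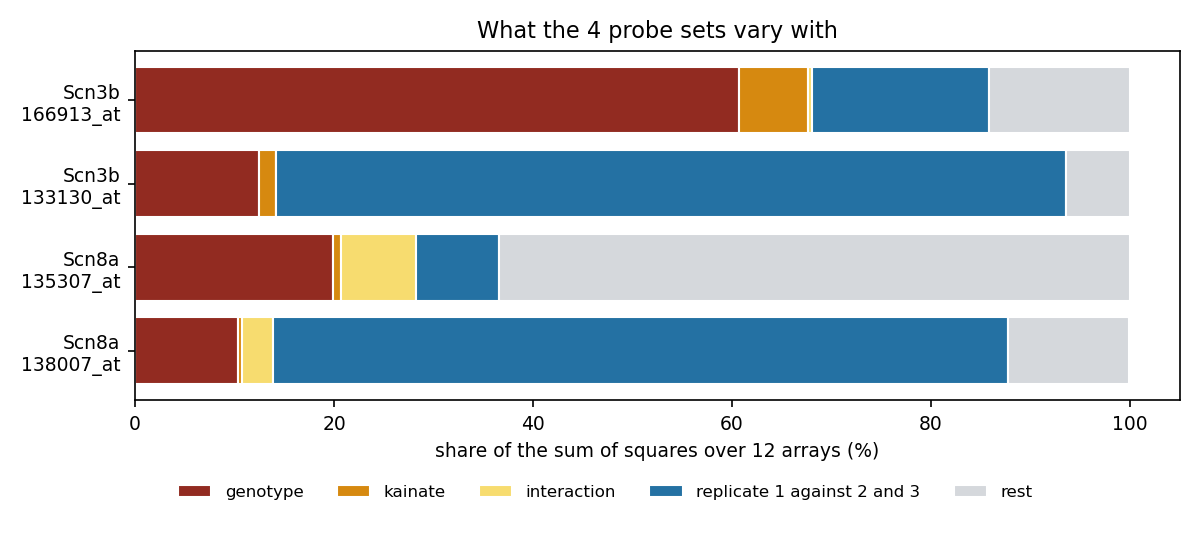
Stacked bars of the share of the sum of squares over the 12 arrays (percent, horizontal axis) held by genotype, kainate, their interaction, the split of replicate 1 from replicates 2 and 3, and the rest, 1 bar per probe set. Genotype holds 60.7% on 166913_at, and the split of replicate 1 holds 79.4% on 133130_at and 73.9% on 138007_at.

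Once the batch means were taken off, the 2 Scn3b probe sets followed each other more closely than the 2 Scn8a probe sets did. As a description over 12 arrays, with no p, r was 0.828 between the 2 Scn3b probe sets and 0.448 between the 2 Scn8a probe sets. Without the mutant kainate replicate 3 array these were 0.783 and 0.698. Before the batch means were taken off, r was 0.716 for Scn3b and -0.029 for Scn8a. Across genes, 166913_at had r of 0.456 with 135307_at and 0.334 with 138007_at, and 133130_at had 0.332 and 0.369. Without that array these were 0.089, 0.376, -0.017 and 0.398 in the same order. Over the 12 arrays the 0.448 of the 2 Scn8a probe sets was thus no higher than the largest value across genes.

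The genes most like Scn3b 166913_at in deviations from the batch means over the 12 arrays were Lmbr1 (r 0.970), Tmem185b (0.949), Fam120aos (0.948), Porcn (0.942) and B230217C12Rik (0.939). For 133130_at they were Celf2 (0.913), Fam43b (0.870), the NMDA receptor subunit Grin2b (0.870), Oip5os1 (0.854) and Spred2 (0.847). The 2 Scn3b probe sets shared none of these names. For Scn8a 135307_at they were Them6 (0.957), Rufy2 (0.952), Nhlh1 (0.945), Cnmd (0.941) and the adenylyl cyclase Adcy5 (0.940), and for 138007_at Wipi1 (0.746), BC030500 (0.720), Map1a (0.706), Hipk2 (0.686) and Sox2ot (0.685). The points share the batch and the weak array: without mutant kainate replicate 3 the values for 135307_at were 0.839 to 0.885. Over the 12 arrays without removal of the batch means the closest genes were Tmem185b (0.957) for 166913_at, Fam43b (0.974) for 133130_at, Rufy2 (0.956) for 135307_at and 2900060B14Rik (0.921) for 138007_at.

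The array held 10 probe sets of sodium channel subunits and the related leak channel Nalcn, from 6 genes, and 8 of them, from 5 genes, passed the filter. Scn2a, the alpha subunit Nav1.2, was read by 131856_at at 5.50 to 6.39 over the 12 arrays, with a genotype difference of -0.12 ± 0.17 averaged over treatments. Its other probe set (3.05 to 3.24) and the Scn7a probe set (3.79 to 4.01) were below the filter. Scn2b, a beta subunit that binds alpha subunits covalently, ran from 8.42 to 11 with a genotype difference of -0.33 ± 0.40. Nalcn ran from 7.84 to 9 on 138068_at with -0.07 ± 0.17, and from 5.83 to 8.68 on 138554_at with -0.53 ± 0.40. Without the 2 arrays in doubt and with the batch block these were -0.08 ± 0.09 for Scn2a and -0.14 ± 0.21 for Scn2b. For Nalcn they were 0.12 ± 0.13 on 138068_at and -0.22 ± 0.19 on 138554_at. None passed the threshold in either fit.

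Kainate differences averaged over genotypes were -0.27 ± 0.17 for Scn2a, -0.60 ± 0.40 for Scn2b, -0.34 ± 0.17 and -0.72 ± 0.40 for the Nalcn probe sets, against -0.18 ± 0.13 for Scn3b 166913_at and -0.07 ± 0.22 for Scn8a 135307_at. The Scn2b value was 0.14 within replicate 1 and -0.97 within replicates 2 and 3. Without the 2 arrays in doubt and with the batch block Scn2a was at -0.27 ± 0.09 and Scn2b at -0.36 ± 0.22. The Nalcn probe sets were then at -0.25 ± 0.13 and -0.37 ± 0.20, 166913_at at -0.11 ± 0.10 and 135307_at at 0.16 ± 0.17. All are differences on the log2 scale, and levels of different probe sets are not compared.

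In 6 lists of channel genes with 126 entries, 27 genes (33 probe sets) were above the filter and 0 passed the threshold in any of the 7 comparisons. The lists cover sodium channel alpha subunits together with Nalcn, beta subunits, their partners, potassium channels of the axon initial segment and node, calcium channels, and other potassium and HCN channels. For genotype averaged over treatments 24 of 27 genes had a negative difference on their brightest probe set, beside 51.1% of all probe sets. On these probe sets 2 genes were lower and 1 higher at an unadjusted limma p under 0.05. Without the 2 arrays in doubt and with the batch block, Nalcn (0.12), Fgf12 (0.08), Kcnmb4 (0.06), Kcnh1 (0.11) and Kcnv1 (0.18) turned positive. The other negative ones stayed negative. List medians were not computed in that setting. The share of lower probe sets depends on brightness: it was 36.5% for means of 4 to 6 and 81.0%, 87.6% and 90.4% for means of 6 to 8, 8 to 9 and above. Of the channel genes 5 of 8 were lower in the dimmest of these classes, and 7 of 7, 5 of 5 and 7 of 7 in the brighter ones. Medians were -0.12 for the alpha subunits (3 genes), -0.42 for the beta subunits (2 genes) and -0.33 for the axon initial segment and node potassium channels (4 genes). Beside these stand -0.22 for calcium channels (5 genes), -0.20 for other potassium and HCN channels (9 genes), -0.12 for the partners (4 genes) and -0.01 for all probe sets. The medians of all probe sets in the 3 brighter classes were -0.25, -0.28 and -0.21. The lists of calcium channels (-0.22) and of other potassium and HCN channels (-0.20) were close to these. The beta subunits and the axon initial segment and node potassium channels lay lower, and the alpha subunits and partners lay higher.

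Among these channels the largest genotype difference was that of Kcnq3, a subunit of the M current that is found with Nav1.6 at the axon initial segment. It was -0.86 ± 0.22 on 138513_at (limma p 0.00337, adjusted p 0.247), with -0.60 in replicate 1 alone and -0.99 in the other replicates, and -0.36 ± 0.16 on 137348_at. Kcnab3, a beta subunit of potassium channels, was at -0.74 ± 0.30 with an adjusted p of 0.255. Kcnd2, the A-type channel Kv4.2, was at 0.14 ± 0.05 and read only 4.42 to 4.80 over the 12 arrays, near the dim level. None of them passed the threshold on all 12 arrays. With both arrays in doubt left out and the batch as a block, Kcnq3 138513_at was at -0.77 ± 0.11 with an adjusted p of 0.039 in limma, past the threshold. Kcnab3 was then at -0.50 ± 0.13 with an adjusted p of 0.164. In that setting 29 of 3541 probe sets were called, 26 of them lower in mutants, against 0 on all 12 arrays. The arrays left out were in doubt for reading against their genotype labels, so their removal can by itself favour genotype calls.

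**Figure D4:**
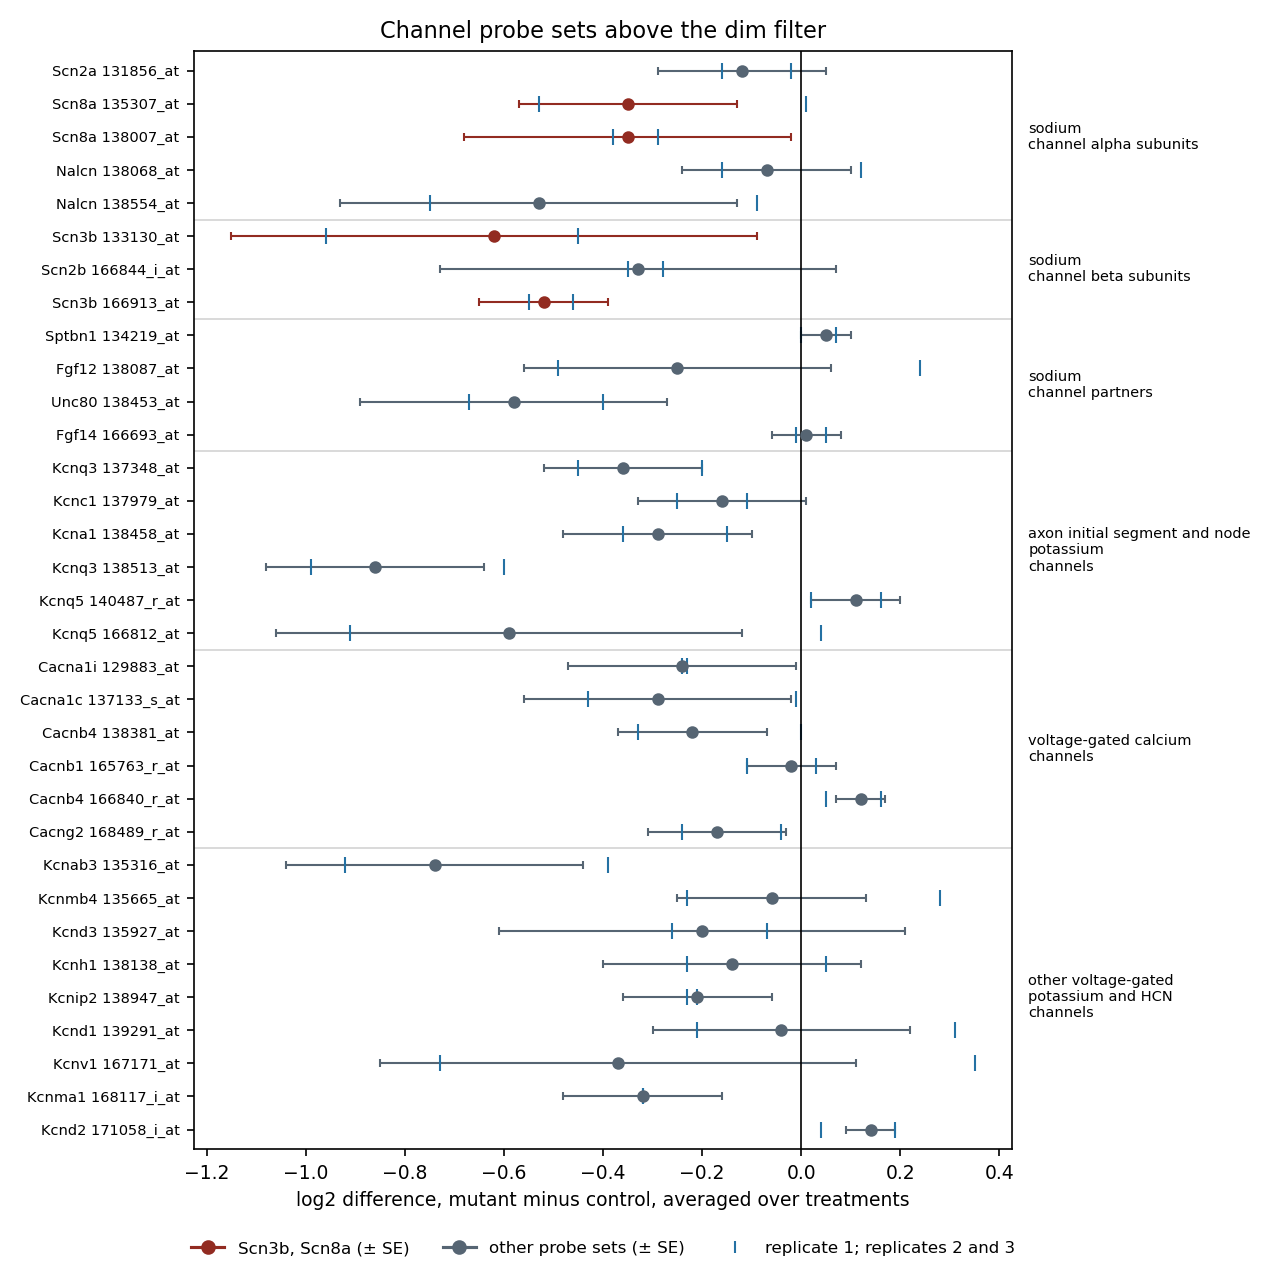
Genotype differences (log2, mutant minus control, averaged over treatments, horizontal axis) of the 33 channel probe sets above the filter, grouped by list down the vertical axis. Points and bars are limma estimates ± SE, Scn3b and Scn8a in red, and blue ticks are the values within replicate 1 and within replicates 2 and 3. Scn3b 166913_at lies at -0.52 ± 0.13, and Kcnq3 138513_at lies farthest to the left at -0.86 ± 0.22.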

How the data were processed

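Hippocampal RNA was hybridised to 12 Affymetrix U74 murine arrays of type C, 3 pools for each of 4 groups. The deposited values are log2 GCRMA values per probe set; R 2.4.1 and GCRMA are named, per the submitters' processing notes; no GCRMA version is given there. They were used as deposited. Array medians ran from 3.26 to 3.41, and the 3 arrays per group limit the precision.

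Control probe sets (66 of 11934) and 8327 dim ones were left out, and 3541 were tested with limma 3.58.1 (R 4.3.3; linear fit, contrasts and eBayes): 4 group means, no block, 8 residual degrees of freedom, 7 comparisons, Benjamini-Hochberg over 3541 and a threshold of 0.05. Standard errors and 95% intervals are limma's. On simulated data 99.5% of changes of 1 log2 unit were recovered for kainate in control mice at a single simulated spread. The annotation gave 1 symbol to 7717 probe sets, several to 150 and none to 4001.

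Named were all 4 members, every sodium channel subunit on the array, up to 4 genes of each other list by size of difference, and the 5 genes most like each member. The members, lists and tests were chosen with earlier results of these data known. Deviations from the group means were correlated between same-numbered arrays. In control mice, kainate and saline arrays had r of 0.627, 0.383 and 0.458. Genotype pairs had 0.855, 0.47 and 0.482 after saline and 0.578, 0.333 and 0.19 after kainate. For kainate in mutant mice the values were 0.479, 0.0448 and -0.0779. The batch can by itself give positive values here, and arrays with different numbers were not compared. Whether the numbers pair any groups beyond the batch was therefore not tested.

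Alternatives were quantile normalization again, centring, no filter and a stricter one, the replicate block, the batch block, leaving out the 2 arrays in doubt, other samples in the fit, a trended robust prior and each array left out.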

Additional observations from a re-analysis of the deposited data

How the results depend on the processing

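Over the 28 member results (4 probe sets in 7 comparisons) 604 alternative values were computed under 22 settings, and 558 kept the direction and side of the threshold. The other 46, in 15 results, turned sign, and none passed the threshold. The lowest adjusted p was 0.0683, for Scn3b 166913_at by genotype averaged over treatments without mutant kainate replicate 1; that difference ran from -0.62 to -0.45 over single arrays left out. The replicate block changed no member's call and gave an adjusted p of 0.187 for it. The 3 arrays per group, pools of animals, limit what can be resolved, and 133130_at lies near the filter.

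All 46 sign changes were in results whose intervals include 0 in the fit without a block, and the cause was not tested. With quantile normalization again the kainate difference in mutant mice was 0.00 for 166913_at, 0.07 for 135307_at and 0.05 for 138007_at, and averaged over genotypes 0.11 for 135307_at and 0.09 for 138007_at; centring gave 0.00 for both of the last. Without the 2 arrays in doubt and with the batch block 135307_at was at 0.06 in mutant mice and 0.16 averaged; with no block it was at 0.07 and 0.17, 133130_at at 0.17 in mutant mice, 0.01 in control mice and 0.09 averaged, and 138007_at at -0.02 in control mice.

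Leaving out 1 array at a time, these ranges crossed 0. For genotype they were -0.41 to 0.04 (138007_at after saline) and -1.15 to 0.05 (133130_at after kainate). For kainate in control mice they were -0.89 to 0.38 (133130_at), -0.06 to 0.27 (135307_at) and -0.18 to 0.56 (138007_at), and in mutant mice -0.75 to 0.18, -0.51 to 0.07 and -0.58 to 0.17 in that order. Averaged over genotypes they were -0.54 to 0.10, -0.18 to 0.11 and -0.23 to 0.15. For the interaction they were -0.13 to 0.21 (166913_at), -0.57 to 0.71 (133130_at) and -0.83 to 0.05 (138007_at).

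Counts over the array moved with the arrays in doubt. Without both and with the batch block, limma called 6 probe sets by genotype after saline, 4 after kainate and 29 averaged (26 lower in mutants). For kainate it called 5, 7 and 20 in mutant mice, control mice and averaged. Both arrays were in doubt for reading against their genotype labels, so leaving them out can by itself favour genotype calls. Without mutant kainate replicate 1 up to 67 were called for kainate in mutant mice. The count of called Scn3b and Scn8a probe sets was 0 in every setting.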
